A study of Mus musculus with 8 samples.

Results

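The 10 genes described here encode chemokine ligands that microglia can express: *Ccl2*, *Ccl3*, *Ccl4*, *Ccl5*, *Ccl7*, *Ccl9*, *Ccl12*, *Cxcl2*, *Cxcl10* and *Cxcl16*. They were chosen by name, with no measured value in the rule, though with earlier results of these data known. They are 10 of the 20308 genes in the count files. RNA was sequenced from CD11b+ cells of 4 control mice (animal numbers 1827, 1872, 1874 and 1934) and 4 CSF1 OE mice (1931, 1932, 1936 and 2019), with 1 library per mouse. All 8 mice were C57Bl/6 X CD1 F1 animals aged p14 or p15. CSF1 OE mice carry a TRE/tTA transgene pair that drives the secreted form of CSF1, a growth and survival factor for microglia, in a subset of GFAP+ cells, and control mice are of the same F1 background. Which of the transgenes the control mice carried is not given in the sources used here. Cells were taken from the right brain hemisphere after Percoll removal of myelin and were pulled down with magnetic beads against CD11b, a surface protein of microglia that other myeloid cells also carry, so the libraries are enriched for microglia and not pure.

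Chemokines are small secreted proteins that bind G protein-coupled receptors and draw receptor-bearing cells along a gradient. CC chemokines such as *Ccl2* and *Ccl3* mostly attract monocytes, macrophages and lymphocytes, while CXC chemokines split into those that attract neutrophils and those, such as *Cxcl10*, that are induced by interferon and attract T and NK cells. In the brain, microglia are a main source of several of them during infection, injury and demyelination, and many of their genes are switched on by NF-kB, by interferon-activated factors, or by both.

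Counts are expected counts per gene, rounded to whole numbers, and levels are given as CPM, the counts scaled to library size with edgeR's TMM factors. The libraries held 12053280 to 15475488 counts, so that 3 counts correspond to 0.177 to 0.266 CPM. A gene was called when edgeR's adjusted p was under 0.05 and its fold change was under 0.7 or over 1.43. *Csf1* itself had 282 ± 98.7 CPM in control against 322 ± 107 CPM in CSF1 OE libraries (SD, n = 4 each, adjusted p = 0.796 from edgeR), and since the transgene is expressed in GFAP+ cells and not in the CD11b+ cells sequenced, this level does not check the genotype labels. Of 11 microglia markers, all were detected and tested, 5 were higher and 6 lower in CSF1 OE, from *Siglech* at a log2 fold change of 0.23 to *Fcrls* at -0.63 (adjusted p = 0.168 from edgeR, with 3 of 4 CSF1 OE mice below every control mouse), and their summed level was 23308 to 40965 CPM in control against 29919 to 42292 CPM in CSF1 OE. In bulk libraries such as these, fewer cells of a type and less RNA per cell cannot be told apart.

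Promoter sequences of 5 of the 10 genes, *Cxcl10*, *Cxcl2*, *Ccl9*, *Ccl3* and *Ccl12*, were in the RefSeq promoter table for build GRCm38.p6. Shown here are the 250 bases before the start of *Cxcl10* (chr5:92348890-92349139, minus strand), *Cxcl2* (chr5:90903649-90903898, plus strand) and *Ccl3* (chr11:83649379-83649628, minus strand). They stand for a ligand whose mean level was higher in CSF1 OE, a ligand whose mean level was lower, and one of the most abundant ligands. Each is written 5′ to 3′ in the direction of the gene, with matches to an NF-kB motif (GGG, any 3 bases and TTCC), an interferon-stimulated response element (GAAA, any 2 bases and GAAA) and an AP-1 motif (TGANTCA), searched on both strands, in capitals.
Cxcl10: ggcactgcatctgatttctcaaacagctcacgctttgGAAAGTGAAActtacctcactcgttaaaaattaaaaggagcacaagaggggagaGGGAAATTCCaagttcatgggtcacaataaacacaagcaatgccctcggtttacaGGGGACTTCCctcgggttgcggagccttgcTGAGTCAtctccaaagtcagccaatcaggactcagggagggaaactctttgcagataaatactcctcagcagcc
Cxcl2: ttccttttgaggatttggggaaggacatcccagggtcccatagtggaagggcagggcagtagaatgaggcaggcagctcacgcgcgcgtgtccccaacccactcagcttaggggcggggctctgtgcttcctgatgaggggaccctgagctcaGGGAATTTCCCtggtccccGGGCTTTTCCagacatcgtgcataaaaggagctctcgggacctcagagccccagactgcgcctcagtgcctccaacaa
Ccl3: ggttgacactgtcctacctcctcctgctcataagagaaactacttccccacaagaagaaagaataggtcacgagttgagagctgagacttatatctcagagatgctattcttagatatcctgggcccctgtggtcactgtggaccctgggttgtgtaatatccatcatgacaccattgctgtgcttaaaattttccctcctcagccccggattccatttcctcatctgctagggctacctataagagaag
The *Cxcl10* promoter held 2 NF-kB matches, 159 and 104 bases before the start, an interferon element 213 bases before it and an AP-1 match 74 bases before it. *Cxcl2* held 3 NF-kB matches, of which those at 97 and 96 bases before the start overlap and the other lies at 78, and no match to the other motifs. No motif was matched in *Ccl3* or in *Ccl12*, while *Ccl9* held an NF-kB match 35 bases and an AP-1 match 53 bases before its start. Over the 32851 promoters of the table, cut to the same length, 4.65% held the NF-kB motif, 2.98% the interferon element and 6.75% the AP-1 motif. A match is a description of the letters, and no binding was measured in these mice.

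By GENCODE M21 coordinates on GRCm38, 8 of the genes lie on chromosome 11 and 2 on chromosome 5. *Ccl2* (chr11:82035571-82037453), *Ccl7* (chr11:82045712-82047525) and *Ccl12* (chr11:82101845-82103400) are neighbours on the plus strand. *Ccl5* (chr11:83525778-83530518, minus strand), *Ccl9* (chr11:83572919-83578636, minus strand), *Ccl3* (chr11:83647844-83649355, minus strand) and *Ccl4* (chr11:83662584-83664683, plus strand) form a distal cluster. *Cxcl16* (chr11:70453983-70459984, minus strand) lies apart from both. *Cxcl2* (chr5:90903871-90905938, plus strand) and *Cxcl10* (chr5:92346638-92348889, minus strand) are the pair on chromosome 5.

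No member was called in CSF1 OE against control, beside 0.44% of the 13407 genes tested (52 higher and 7 lower). *Ccl5*, *Cxcl10* and *Cxcl16* had higher mean levels in CSF1 OE, with log2 fold changes of 2.43, 1.30 and 0.77, and each had an unadjusted p under 0.05 in edgeR. Of these, *Ccl5* passed the filter on low counts only through its CSF1 OE libraries, so its p supports nothing on its own. The other 7 had lower mean levels, with log2 fold changes from -0.58 for *Ccl2* to -0.05 for *Ccl12*, and 0 of them had an unadjusted p under 0.05. Among all genes tested, 10.1% were higher and 6.44% lower at an unadjusted p under 0.05, and 55.2% had a lower mean. The median log2 fold change was -0.09 over the members and -0.03 over all genes tested.

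**Figure D1:**
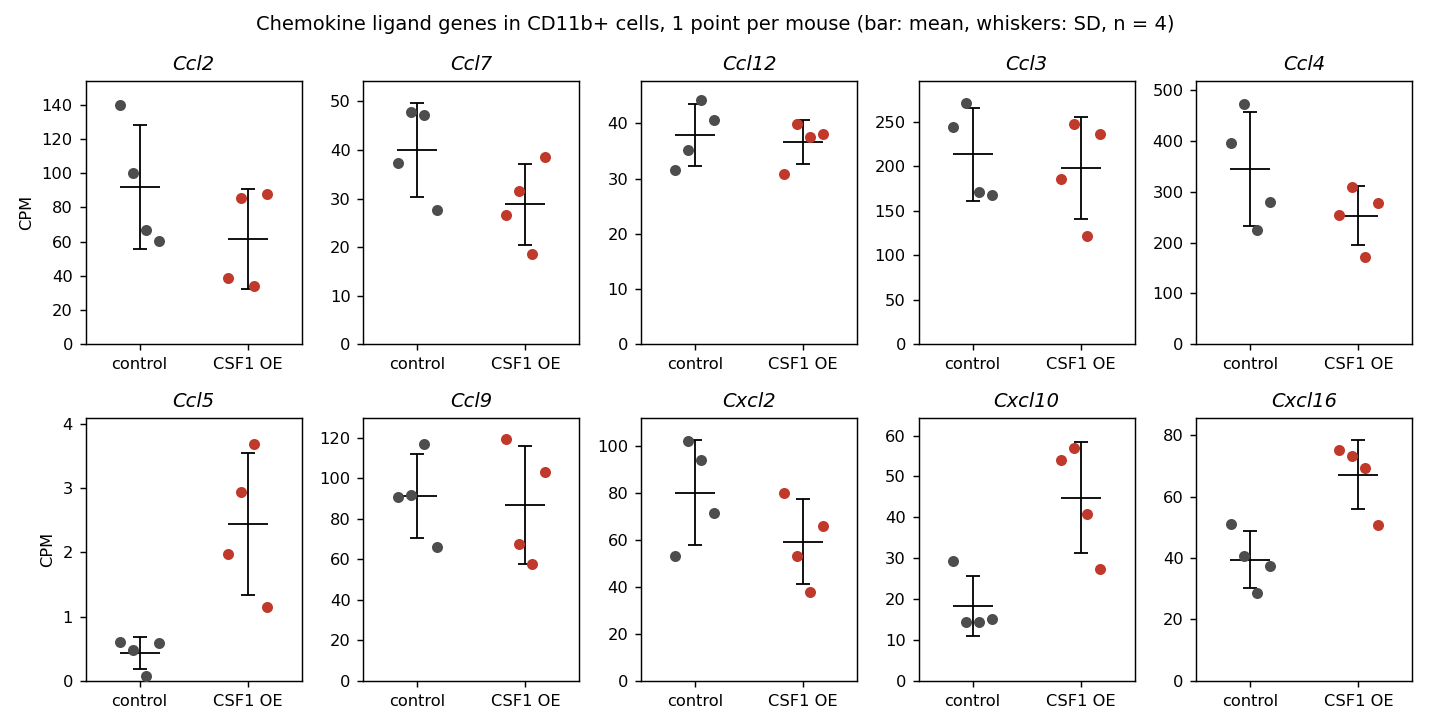
CPM of each ligand gene (y axis, linear and from 0, a separate scale for each gene) in 4 control (grey) and 4 CSF1 OE (red) mice, with 1 point per mouse in the order of animal number, the mean as a bar and the SD as whiskers. The groups are apart for *Ccl5*, meet at 1 mouse each for *Cxcl10* and *Cxcl16*, and overlap for the other 7 genes.

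The ligands of CCR2, the receptor that brings inflammatory monocytes out of the marrow and into tissue, are encoded by *Ccl2*, *Ccl7* and *Ccl12*. *Ccl2* (MCP-1) had 139.7, 99.7, 66.9 and 60.4 CPM in control mice 1827, 1872, 1874 and 1934, and 38.5, 85.5, 34.1 and 87.8 CPM in the CSF1 OE mice 1931, 1932, 1936 and 2019. Control mice 1827 and 1872 lay above every CSF1 OE mouse, CSF1 OE mice 1931 and 1936 lay below every control mouse, and the remaining 4 mice overlapped. The means were 91.7 ± 36.3 and 61.5 ± 29.1 CPM (SD, n = 4 each), a ratio of 0.670 (95% confidence interval 0.372 to 1.21, adjusted p = 0.473 from edgeR).

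*Ccl7* (MCP-3), in the same mouse order, had 37.4, 47.9, 47.2 and 27.6 CPM in control against 26.5, 31.5, 18.7 and 38.5 CPM in CSF1 OE. Its lowest 2 values, like those of *Ccl2*, were CSF1 OE mice 1936 and 1931, and CSF1 OE mouse 2019 lay within the control range. The log2 fold change was -0.47 (standard error 0.24, interval -1.02 to 0.07, adjusted p = 0.366 from edgeR). *Ccl12* (MCP-5), which humans lack, had 31.6, 35.3, 44.3 and 40.6 CPM in control against 30.8, 39.9, 37.6 and 38.1 CPM in CSF1 OE. This was the narrowest interval among the members, with a ratio of 0.964 (0.788 to 1.18, adjusted p = 0.856 from edgeR). Its interval leaves out the call thresholds of 0.7 and 1.43.

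CCR2 itself, encoded by *Ccr2* and a marker of monocytes, had 11.1 ± 4.46 CPM in control against 7.45 ± 3.53 CPM in CSF1 OE (log2 fold change -0.57, adjusted p = 0.487 from edgeR). Another monocyte marker, *Ly6c2*, had a log2 fold change of -0.84, whereas *Plac8*, also carried by monocytes, had 7.28 ± 3.58 CPM in control against 23.7 ± 11.4 CPM in CSF1 OE (log2 fold change 1.70, adjusted p = 0.0948 from edgeR). Over the 5 monocyte markers, 2 were higher and 3 lower, with summed levels of 14.1 to 28.0 CPM in control against 24.6 to 45.3 CPM in CSF1 OE.

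*Ccl3* (MIP-1 alpha) and *Ccl4* (MIP-1 beta), which attract monocytes, macrophages and lymphocytes, with *Ccl3* acting through CCR1 among its receptors, were the most abundant ligands of the set in every group. *Ccl3* had 244, 272, 171 and 168 CPM in control mice 1827, 1872, 1874 and 1934 and 186, 248, 122 and 236 CPM in the CSF1 OE mice 1931, 1932, 1936 and 2019. Of the CSF1 OE mice, 1936 alone lay outside the control range, below it. The means were 214 ± 52.3 and 198 ± 57.3 CPM (SD, n = 4 each) and the ratio 0.926 (95% confidence interval 0.635 to 1.35, adjusted p = 0.835 from edgeR).

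*Ccl4* had 396, 473, 225 and 279.6 CPM in control against 255, 308, 172 and 277 CPM in CSF1 OE. Control mice 1872 and 1827 were the 2 highest of all and CSF1 OE mouse 1936 the lowest, with the other 5 mice interleaved. Its log2 fold change was -0.44 (standard error 0.25, interval -1.01 to 0.13, adjusted p = 0.414 from edgeR). Over the 8 mice *Ccl3* and *Ccl4*, which are neighbours on the chromosome, correlated with r = 0.89 on log2 CPM, a description over libraries that share depth and preparation.

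*Ccl9* (MIP-1 gamma), a ligand of CCR1 found in rodents, had 90.5, 91.9, 117 and 66.2 CPM in control against 119, 67.7, 57.6 and 103 CPM in CSF1 OE. The groups overlapped throughout, with means of 91.4 ± 20.8 and 86.9 ± 29.1 CPM (SD, n = 4 each). The ratio was 0.950 (95% confidence interval 0.644 to 1.403, adjusted p = 0.899 from edgeR). Its receptor gene *Ccr1* had 87.2 ± 21.6 CPM in control against 202 ± 91.8 CPM in CSF1 OE, was above every control mouse in 4 of 4 CSF1 OE mice, and was not called (log2 fold change 1.21, adjusted p = 0.0973 from edgeR).

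*Ccl5* (RANTES), a ligand of CCR1 and CCR3 that T cells, NK cells and activated macrophages make, was the rarest of the 10 genes. Its rounded counts were 9, 7, 1 and 10 in control mice 1827, 1872, 1874 and 1934, a total of 27, and 24, 40, 54 and 13 in CSF1 OE mice 1931, 1932, 1936 and 2019, a total of 131. In CPM these were 0.605, 0.484, 0.0756 and 0.592 against 1.97, 2.94, 3.68 and 1.15, so that every CSF1 OE mouse lay above every control mouse, as did 6.84% of all genes tested (3.45% lay below in the same way). It was the single member with separated groups. The log2 fold change was 2.43 (standard error 0.54, interval 1.22 to 3.64, adjusted p = 0.0753 from edgeR). *Ccl5* passed the filter on low counts, at 0.715 CPM, through the CSF1 OE libraries alone (4 of 4, against 0 of 4 control libraries), so that a low count in control was a part of its being tested. Control mouse 1874, with 1 count, is below the 3 counts taken as the floor.

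Since *Ccl5* is also made by T and NK cells, their markers were read in the same libraries. Of 12 listed markers 10 were in the count files and 1, *Klrb1c*, passed the filter, and the summed level of the list was 0.470 to 1.36 CPM in control against 1.23 to 2.14 CPM in CSF1 OE. *Klrb1c*, which encodes NK1.1, had 0.430 ± 0.178 CPM in control against 1.25 ± 0.535 CPM in CSF1 OE (log2 fold change 1.53, adjusted p = 0.134 from edgeR). It had 4 to 9 counts in control and 11 to 25 in CSF1 OE. Like *Ccl5*, it passed the filter through its CSF1 OE libraries, so its p supports nothing on its own. *Klrb1c* also made up most of the mean list sum in CSF1 OE, which was 1.66 CPM against 0.863 CPM in control. Of the other 9 markers in the files, *Ncr1* was at 0 counts in all 8 libraries and *Cd3e* had 1 count in 1 library. *Gzma*, *Gzmb* and *Nkg7* had 0 to 1 counts. *Prf1* had 1 to 3 counts in control and 0 to 1 in CSF1 OE, and *Cd2* had 0 to 2 and 0 to 1, both with a lower mean in CSF1 OE. *Cd3d* had 0 to 3 counts in control and 0, 2, 1 and 8 in CSF1 OE mice 1931, 1932, 1936 and 2019, and *Cd3g* had 0 in every control mouse and 0, 1, 2 and 0 in the same CSF1 OE mice. The highest *Cd3d* count was in mouse 2019, which had the fewest *Ccl5* counts of the CSF1 OE mice (13), and the highest *Cd3g* count in mouse 1936, which had the most (54). The part of T or NK cells in the *Ccl5* counts was not tested.

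*Cxcl10* (IP-10), an interferon-induced ligand of CXCR3, had 29.2, 14.4, 14.3 and 15.02 CPM in control mice 1827, 1872, 1874 and 1934 and 54.0, 57.02, 40.7 and 27.4 CPM in the CSF1 OE mice 1931, 1932, 1936 and 2019. The rounded counts behind these values were 189 to 776. In 3 of the 4 CSF1 OE mice it was above every control mouse, and the groups met because control mouse 1827 lay just above CSF1 OE mouse 2019. The means were 18.2 ± 7.34 and 44.8 ± 13.6 CPM (SD, n = 4 each), a ratio of 2.46 (95% confidence interval 1.54 to 3.93, adjusted p = 0.0873 from edgeR). Without control mouse 1827 *Cxcl10* was called, at a log2 fold change of 1.62 (adjusted p = 0.0396 from edgeR), in a fit that called 1.21% of genes.

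*Cxcl16*, a ligand made as a membrane protein that ADAM10 sheds and that binds CXCR6, had 51.2, 40.8, 28.7 and 37.3 CPM in control against 75.2, 73.2, 69.4 and 50.7 CPM in CSF1 OE. As for *Cxcl10*, 3 of 4 CSF1 OE mice were above every control mouse, and control mouse 1827 and CSF1 OE mouse 2019 were the pair that met, here at 51.2 and 50.7 CPM. The means were 39.5 ± 9.33 and 67.1 ± 11.2 CPM (SD, n = 4 each), a ratio of 1.70 (95% confidence interval 1.27 to 2.27, adjusted p = 0.0937 from edgeR).

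DESeq2's Wald test called both *Cxcl10* (log2 fold change 1.30, adjusted p = 0.00168) and *Cxcl16* (0.76, adjusted p = 0.0063). It called 416 genes in all, 3.3% of those it tested. *Ccl5* received no adjusted p from DESeq2, its unadjusted p in the Wald test being 4.19e-05. That p supports nothing on its own, since *Ccl5* passed the filter on low counts through its CSF1 OE libraries alone. Over every alternative that could be fitted, the log2 fold change ranged from 1.52 to 2.66 for *Ccl5*, from 1.002 to 1.62 for *Cxcl10* and from 0.58 to 0.92 for *Cxcl16*, and those of the other 7 genes lay between -0.80 and 0.17. The adjusted p ran from 0.00168 to 0.248 for *Cxcl10* and from 0.0063 to 0.261 for *Cxcl16*. For *Ccl5* the adjusted p ran from 0.0478 to 0.227, with the same limit.

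**Figure D2:**
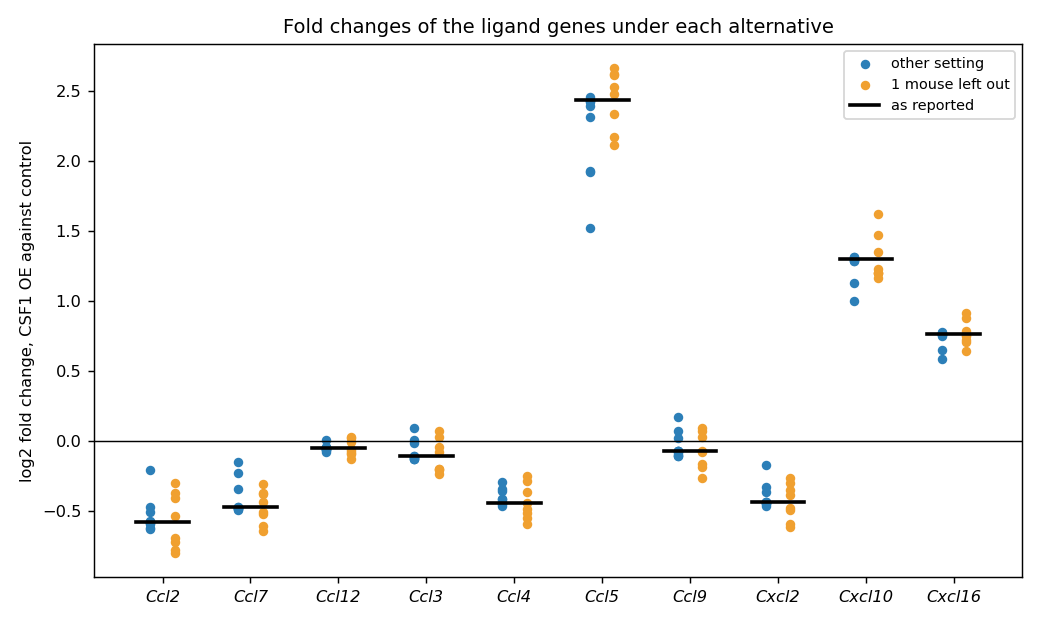
The log2 fold change of each ligand gene, CSF1 OE against control (y axis), with all 8 mice in edgeR (black line), under other settings (blue points) and with 1 mouse left out (orange points). *Ccl5*, *Cxcl10* and *Cxcl16* stay above 0 in every point shown, *Ccl2*, *Ccl7*, *Ccl4* and *Cxcl2* stay below 0, and *Ccl12*, *Ccl3* and *Ccl9* fall on both sides of it.

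The receptors of both CXC ligands were scarce. *Cxcr3*, the receptor gene for *Cxcl10*, had 4.52 ± 1.13 CPM in control against 2.58 ± 0.397 CPM in CSF1 OE, was below every control mouse in 4 of 4 CSF1 OE mice, and was not called (log2 fold change -0.80, adjusted p = 0.161 from edgeR). *Cxcr6*, the receptor gene for *Cxcl16*, had 2 to 6 counts per library and was not tested. *Cxcl9*, which encodes another interferon-induced ligand of CXCR3 and is named here after its values were seen, had too few counts for the test, with 3, 7, 1 and 0 counts in control and 19, 4, 32 and 4 in CSF1 OE. The sheddase gene *Adam10* had 426 ± 54.8 CPM in control against 523 ± 30.6 CPM in CSF1 OE (log2 fold change 0.30, adjusted p = 0.231 from edgeR). Of the other 2 proteases listed for ligand processing, *Adam17* had a log2 fold change of 0.09 and *Dpp4*, whose product trims chemokines such as CXCL10, one of -0.88, and neither was called.

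*Cxcl2* (MIP-2), a ligand of CXCR2 that attracts neutrophils, had 53.1, 102, 94.1 and 71.2 CPM in control against 80.1, 53.0, 37.7 and 66.0 CPM in CSF1 OE. Control mice held both the highest values and one of the lowest, so the groups overlapped, with means of 80.1 ± 22.2 and 59.2 ± 18.1 CPM (SD, n = 4 each). The log2 fold change was -0.44 (standard error 0.26, interval -1.02 to 0.15, adjusted p = 0.431 from edgeR). *Cxcl1*, which encodes the other main mouse ligand of CXCR2, had 29.5 ± 7.67 CPM in control against 18.3 ± 6.24 CPM in CSF1 OE (log2 fold change -0.69, adjusted p = 0.238 from edgeR). *Cxcr2* had 6.10 ± 1.67 and 6.24 ± 2.53 CPM (log2 fold change 0.03), and the summed level of 8 neutrophil markers was 46.5 to 104 CPM in control against 16.01 to 230.2 CPM in CSF1 OE. *S100a8*, *S100a9*, *Ngp*, *Camp*, *Ltf* and *Retnlg* were each above every control mouse in 1 CSF1 OE mouse, 2019. Each was below every control mouse in 2 CSF1 OE mice.

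**Figure D3:**
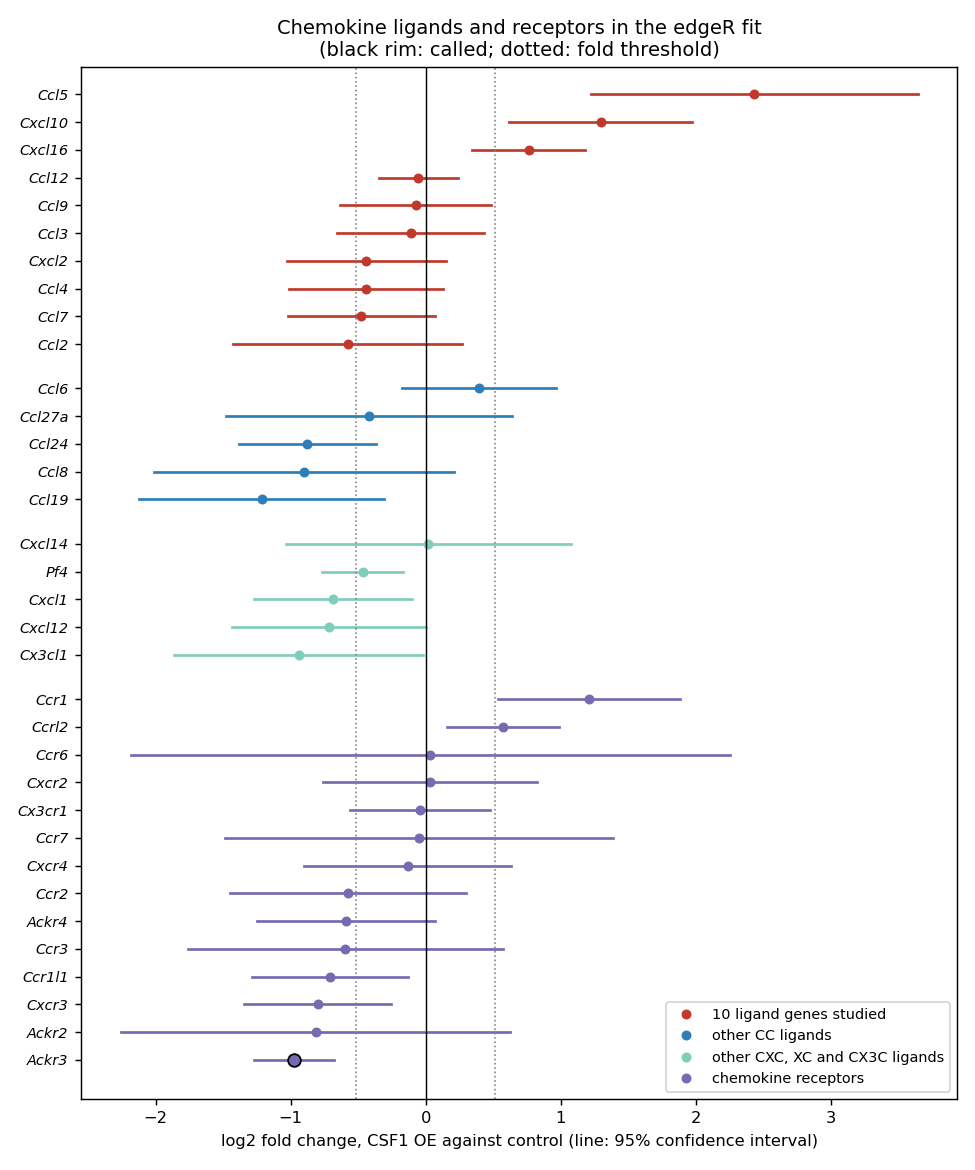
The log2 fold change in CSF1 OE against control (x axis) with its 95% confidence interval (line) for the 10 ligand genes (red), the other CC ligands (blue), the other CXC, XC and CX3C ligands (green) and the chemokine receptors (purple) that were tested (14 receptors are drawn), with dotted lines at fold changes of 0.7 and 1.43. *Ackr3* alone has the black rim of a called gene, while the intervals of *Ccl5*, *Cxcl10* and *Cxcl16* lie above 0 without a call.

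The remaining chemokine genes had mostly lower means in CSF1 OE. Of 14 other CC ligands 5 were tested, 1 higher and 4 lower, with a median log2 fold change of -0.88 and 0 called. They ran from *Ccl6* at 0.39 to *Ccl19* at -1.21. Of 14 other CXC, XC and CX3C ligands 5 were tested, 1 higher and 4 lower, with a median of -0.69 and 0 called, from *Cxcl14* at 0.02 to *Cx3cl1*, the neuronal ligand of the microglial receptor CX3CR1, at -0.94. At an unadjusted p under 0.05 in edgeR, 0 of these 10 genes were higher and 5 lower, beside 10.1% and 6.44% of all genes tested. Of 24 receptors 15 were tested, 4 higher and 11 lower, and 1 was called, beside 0.44% of all genes tested. That gene, *Ackr3*, whose product scavenges CXCL12, fell from 30.1 ± 1.78 to 15.3 ± 2.53 CPM (log2 fold change -0.97, adjusted p = 0.0365 from edgeR).

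Levels can be compared between genes, with a limit, once divided by exon length, here in CPM per kilobase. The length counts every base that lies in an exon of any annotated transcript. For *Cxcl10* (2252 bases) and *Cxcl2* (2068 bases) this was the whole gene span, so their levels per kilobase may be understated. For *Ccl3* it was 766 of 1512 bases. In control mice the order was *Ccl4* (521), *Ccl3* (279), *Ccl2* (80.6), *Ccl12* (70.7), *Ccl7* (49.9), *Cxcl2* (38.7), *Ccl9* (30.02), *Cxcl16* (13.1), *Cxcl10* (8.10) and *Ccl5* (0.457). Neighbours in this order had ranges that overlapped except at *Ccl3* over *Ccl2*, *Ccl9* over *Cxcl16* and *Cxcl10* over *Ccl5*. *Ccl4* stood at the 99.6th percentile of all genes tested with a length and *Ccl5* at the 7.14th. In CSF1 OE mice the order was the same but for *Ccl12* (68.1) and *Ccl2* (54.0), and *Cxcl16* (22.2) and *Cxcl10* (19.9) now overlapped in range with their neighbours up to *Ccl9* (28.5), whereas *Ccl5* (2.54) lay apart from all others.

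**Figure D4:**
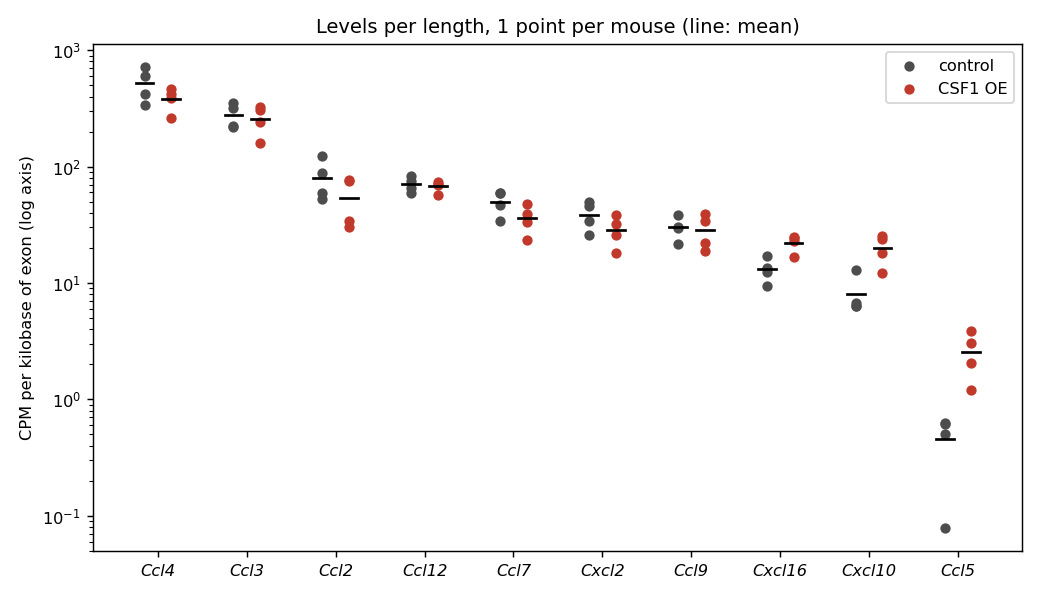
Level of each ligand gene per exon length (y axis, CPM per kilobase, log axis) in control (grey) and CSF1 OE (red) mice, 1 point per mouse and a line at the mean, ordered by the control mean. *Ccl4* and *Ccl3* lead in both genotypes, with group means of 258 to 521 CPM per kilobase, and the gap between *Ccl9* and *Cxcl16* in control mice is closed in CSF1 OE mice.

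As a share of the summed CPM per kilobase of the 10 genes in each mouse, *Ccl3* and *Ccl4* together made up 65.3% to 77.4% in control and 67.2% to 73.2% in CSF1 OE. *Cxcl10* made up 0.461% to 1.05% in control and 1.195% to 2.89% in CSF1 OE, and *Cxcl16* 0.9752% to 1.398% and 1.65% to 3.67%. The denominator is mostly *Ccl3* and *Ccl4*, and both genes overlapped between the groups in CPM. *Ccl5* made up at most 0.07% in control and 0.118% to 0.613% in CSF1 OE. The sum over the 10 genes was 957 ± 200.5 CPM in control against 838 ± 168 CPM in CSF1 OE (SD, n = 4 each), which differ by less than the spread between mice. These shares describe the balance of transcripts and say nothing of secreted protein. They carry the same limit of exon length, which may understate *Cxcl10* and *Cxcl2*.

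The mice differed among themselves as well as by genotype. CSF1 OE mouse 1936 had the lowest level of 6 of the 10 genes, namely *Ccl2*, *Ccl3*, *Ccl4*, *Ccl7*, *Ccl9* and *Cxcl2*, and the highest level of *Ccl5*. Control mouse 1872 had the highest level of *Ccl3*, *Ccl4*, *Ccl7* and *Cxcl2*. Over the 8 libraries *Cxcl10* and *Cxcl16* correlated with r = 0.96 on log2 CPM, *Ccl5* and *Cxcl16* with r = 0.94, and *Ccl5* and *Ccl7* with r = -0.77. The genes outside the set most like each member, out of all genes tested, were *Zfp180*, *Sfi1* and *Poll* for *Ccl2* (r = 0.97, 0.97 and 0.97), *Phf20*, *Ptgs2* and *Ankrd54* for *Ccl4* (0.97, 0.97 and 0.95), *Ndufa13*, *Cd274* and *Exosc9* for *Ccl5* (0.99, 0.98 and 0.98), *Exoc4*, *Rpl27a* and *Rps10* for *Cxcl10* (0.99, 0.99 and 0.99), and *Snd1*, *Ap1s1* and *Nek6* for *Cxcl16* (0.99, 0.99 and 0.98). For the remaining members they were *Nck1*, *Elmod2* and *Arid4a* (*Ccl7*), *Dnajc4*, *Trpt1* and *Golim4* (*Ccl12*), *Polr1b*, *3110062M04Rik* and *Ankrd10* (*Ccl3*), *Hgs* and *Slc43a2* (*Ccl9*), and *Mxd4*, *Ap2a2* and *Kcnj14* (*Cxcl2*), at r from 0.90 to 0.98. These correlations describe 8 libraries and carry no test.

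**Figure D5:**
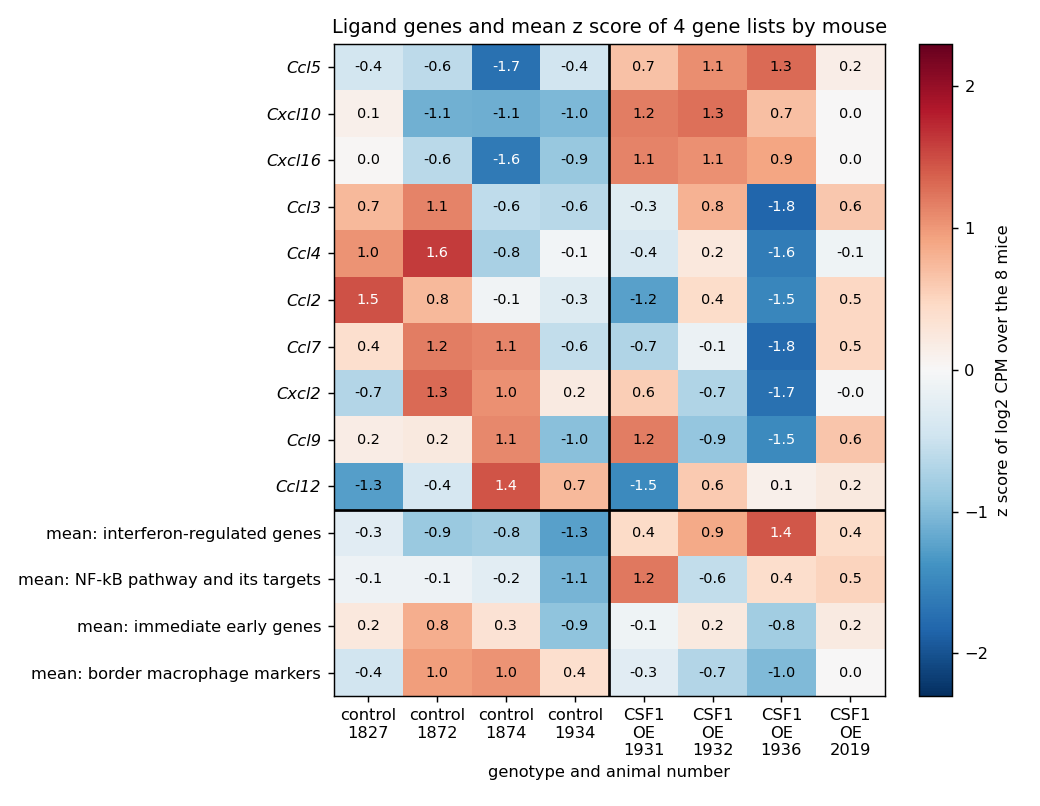
Each ligand gene's log2 CPM as a z score over the 8 mice (rows above the line), and the mean z score of 4 gene lists (rows below it), by genotype and animal number, in SD units from blue (low) to red (high). *Ccl5*, *Cxcl10* and *Cxcl16* are red in CSF1 OE mice 1931, 1932 and 1936, the interferon list is above 0 in all 4 CSF1 OE mice including 2019, where *Cxcl10* and *Cxcl16* are near 0, and mouse 1936 is the bluest column for 6 of the other 7 genes.

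Interferon-regulated genes were set beside the ligands because *Cxcl10* belongs to that response. All 17 tested genes of the list had higher means in CSF1 OE, with a median log2 fold change of 1.85. All 17 had an unadjusted p under 0.05 in edgeR, beside 10.1% of all genes tested that were higher at that p. In 14 of them every CSF1 OE mouse was above every control mouse, beside 6.84% of all genes tested. The study had already reported interferon-regulated genes, *Usp18* of this list among them, as upregulated in CSF1 OE. The list was chosen with earlier results of these data known, so these counts are a description and no independent support. *Isg15*, a ubiquitin-like modifier, rose from 3.14 ± 0.92 to 11.3 ± 3.14 CPM (log2 fold change 1.85, adjusted p = 0.0431 from edgeR), and *Ifit1*, which binds viral RNA, from 1.05 ± 0.15 to 3.80 ± 0.983 CPM (log2 fold change 1.85, adjusted p = 0.0398 from edgeR). *Ifi44* had the largest log2 fold change, 2.63 (adjusted p = 0.0558 from edgeR), and *Stat2* the smallest, 0.24 (adjusted p = 0.241 from edgeR). In control *Ifi44* had 0.591 to 1.81 CPM. Its lowest control value was under the filter's 0.715 CPM, so its CSF1 OE libraries helped it pass. The log2 fold change of *Cxcl10*, 1.30, lay below the median of this list.

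The NF-kB pathway and its targets, to which many CC ligand genes and *Cxcl2* also respond, had smaller fold changes. Of 21 genes tested, 18 had higher and 3 lower means, with a median log2 fold change of 0.39, and 0 were called. At an unadjusted p under 0.05 in edgeR 8 were higher, beside 10.1% of all genes tested, and 0 lower, beside 6.44%. *Il1a* had 319 ± 135 CPM in control against 816 ± 296 CPM in CSF1 OE (log2 fold change 1.35, adjusted p = 0.108 from edgeR). *Tnf* had 113 ± 29.2 CPM in control against 281 ± 107 CPM in CSF1 OE (log2 fold change 1.32, adjusted p = 0.0902 from edgeR), and *Traf1* had the lowest value of the list, -0.70. Whether NF-kB bears on the levels of the ligands was not tested.

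Taking cells out of tissue is known to induce immediate early genes and several of these ligands, *Ccl3* and *Ccl4* among them. Of 18 immediate early genes, 5 were higher and 13 lower in CSF1 OE, from *Ier2* at 0.38 to *Nr4a1* at -0.55, 0 had an unadjusted p under 0.05 in edgeR, and 0 were called. Their summed level was 13497 to 22070 CPM in control against 13222 to 18901 CPM in CSF1 OE. With the mean z score of this list as a covariate the number of members called was 0, and *Ccl9* changed sign, to 0.02.

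Markers of border macrophages, which also carry CD11b and express *Ccl2*, *Ccl7* and *Ccl12*, were lower in CSF1 OE in 9 of 10 cases, with 0 called. At an unadjusted p under 0.05 in edgeR 7 were lower, beside 6.44% of all genes tested, and 1 was higher, beside 10.1%. The summed level of the 10 markers was 1647 to 2606 CPM in control against 1342 to 1977 CPM in CSF1 OE, with a median log2 fold change of -0.47. *Cd163* had the lowest value, -1.11, and *Siglec1*, which is also induced by interferon, the highest, 0.49. Endothelial markers were lower in 8 of 8 cases (717 to 1208 CPM in control against 344 to 840 CPM in CSF1 OE), as were 5 of 5 red blood cell markers (251 to 936 and 38.5 to 434 CPM). Astrocyte markers had sums of 370 to 681 and 316 to 716 CPM, and oligodendrocyte lineage markers of 2424 to 5197 and 1298 to 4265 CPM. With a covariate for border macrophage, monocyte, neutrophil and T or NK cell markers, the log2 fold change of *Ccl7* was -0.23 in place of -0.47, that of *Cxcl2* -0.17 in place of -0.44, that of *Ccl2* -0.50 and that of *Ccl4* -0.36, while *Ccl12*, *Ccl3* and *Ccl9* stood at 0.0044, 0.0087 and 0.07. The values with this covariate were 1.93 for *Ccl5*, 1.002 for *Cxcl10* and 0.58 for *Cxcl16*. The mean z score behind the covariate was 0.68 in CSF1 OE mouse 2019 and -0.80 to -0.30 in the other CSF1 OE mice. In control it was -0.34 to 0.72. The part of the endothelial and red blood cell markers in the values of the ligands was not tested.

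Animal numbers divide the mice unevenly, with 3 CSF1 OE mice and 1 control mouse from 1931 to 1936 and 1 CSF1 OE mouse and 3 control mice outside it. The labels do not say what the numbers stand for. Within 1931 to 1936 the difference in mean log2 CPM was 1.99 for *Ccl5*, 1.73 for *Cxcl10* and 0.96 for *Cxcl16*, and among the other numbers it was 1.46, 0.59 and 0.37. The signs held on both sides, and the differences were smaller where mouse 2019 was the single CSF1 OE mouse. For *Ccl2* the values were -0.32 and -0.15, for *Ccl7* -0.14 and -0.19, for *Ccl4* -0.23 and -0.33 and for *Cxcl2* -0.39 and -0.27. For *Ccl3* they were 0.08 and 0.07, for *Ccl9* 0.23 and 0.05 and for *Ccl12* -0.18 and 0.05. A term for this range in the fit put the log2 fold change of *Ccl2* at -0.21 in place of -0.58 and that of *Ccl7* at -0.15 in place of -0.47. That of *Ccl4* was -0.29 in place of -0.44 and that of *Cxcl2* -0.33 in place of -0.44. With a term for this range *Ccl5* was called at a log2 fold change of 1.92 (edgeR's adjusted p = 0.0478, in a fit that called 1274 genes, or 9.5%), with the limit that it was tested through its CSF1 OE libraries alone.

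Expected counts with a fraction, which arise where reads are divided between genes, occurred for 9 of the 10 genes, from 1 of 8 libraries for *Ccl2* and *Ccl7* to all 8 for *Cxcl16*. *Ccl5* had whole expected counts in all 8 libraries. By annotation, *Cxcl16* shares 552 exon bases with *Zmynd15* on the opposite strand, and *Cxcl10* shares 133 with *Art3*, and the strand setting of the counting is not given in the sources used here. *Zmynd15* held 22 to 42 counts per library and *Art3* 9 to 44, against at least 379 for *Cxcl16* and 189 for *Cxcl10*. Of the 50-base stretches in its transcripts, *Cxcl2* shared 5.84% with *Cxcl3*, which had 1 to 5 counts per library, and *Ccl9* shared 1.97% with other genes. The CC ligands were distinct from each other, with a longest run of 23 bases shared between any 2 members, *Ccl2* and *Ccl7*.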

How the data were processed

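Per the labels and the study's methods, libraries were made from total RNA with the TruSeq RNA Library Prep Kit v2, demultiplexed with bcl2fastq 1.8.4, aligned to mm10 with Bowtie 1.0.0 and quantified with RSEM 1.2.7, and the authors deposited expected counts per gene for each mouse. They also deposited a normalized signal matrix, in which each library's counts are divided by 1 constant; it served only for the limma alternatives. The annotation and strand setting are not given in the sources used here. Each library is 1 mouse, and 0 columns were left unmapped.

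Expected counts were rounded, filtered with filterByExpr (13407 of 20308 genes; all 10 ligand genes passed), scaled by TMM and tested with edgeR 4.0.16 (R 4.3.3) by quasi-likelihood over all 8 libraries with no covariate, with Benjamini-Hochberg adjustment over all genes tested. The study's EBSeq was not used here. Log2 CPM used a prior count of 2. Exon lengths came from GENCODE M21 and were matched for 95.16% of symbols. DESeq2 1.42.0 and limma 3.58.1 gave alternatives. Any 2 libraries differed by a chi-square per gene of 14.5 to 86.3, so none was a copy. In simulated data for this comparison, 59% of 200 genes changed 2-fold were called among 13316 genes, and 6.35% of calls were false. Intervals and floors do not cover preparation error.

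Named genes were all members, in each gene list the tested gene with the largest and the smallest fold change and any called gene, and the 3 genes most like each member; others are named as receptors or partner ligands of a member, or as defining markers. The members and lists were chosen with earlier results of these data known. Of genes that this rule selects, 2 are not reported here.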

Additional observations from a re-analysis of the deposited data

Results flagged for a closer look

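In each group of 4 mice, the gap between the most extreme mouse and its nearest neighbour was divided by the range on the log2 CPM scale and compared with Dixon's 95% critical value for 4 samples. Chance flags about 1 in 20 groups, and 20 groups were examined for the 10 ligand genes. *Cxcl10* in control mouse 1827 stood above the other 3 control mice, at 29.2 CPM against 14.3 to 15.02 CPM, with a gap of 0.930 of the range (0.951 on the CPM scale). *Ccl5* in control mouse 1874 stood below the other control mice, at 1 count against 7 to 10 counts, with a gap of 0.857 of the range, and on the CPM scale the gap was 0.772, under the critical value.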

How the results depend on the processing

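With all 8 mice and edgeR 59 genes were called. The count was 416 with DESeq2, 19 with upper-quartile factors, 105 and 99 with limma on the normalized values at pseudocounts of 1 and 8, 1274 with an animal-number term, 16 with the immediate early covariate, 8 with the covariate for border macrophage and blood cell markers, 3 at an adjusted p under 0.01, and 3 to 164 with 1 mouse left out (164 without control mouse 1827, 3 without 1872 or 1874, 10 without 1934, 4 without CSF1 OE mouse 1931, 18 without 1932, 8 without 1936 and 72 without 2019). The number of ligand genes called was 2 with DESeq2 (*Cxcl10* at 1.30 and *Cxcl16* at 0.76 on the log2 scale), 1 with the animal-number term (*Ccl5* at 1.92, a gene tested through its CSF1 OE libraries alone), 0 to 1 with 1 mouse left out (*Cxcl10* at 1.62 without control mouse 1827) and 0 otherwise. *Ccl5* could not be fitted with at least 10 counts required in every library. Signs turned in 13 cases, all for genes near 0. *Ccl12* was at 0.0044 with the marker covariate, 0.032 without control mouse 1874 and 0.023 without CSF1 OE mouse 1931, and ran from -0.13 to 0.032 with 1 mouse left out. *Ccl3* was at 0.092 with the animal-number term, 0.0087 with the marker covariate, 0.028 without control mouse 1872 and 0.069 without CSF1 OE mouse 1936, and ran from -0.24 to 0.069 with 1 mouse left out. *Ccl9* was at 0.17 with the animal-number term, 0.024 with the immediate early covariate, 0.072 with the marker covariate, 0.075 without control mouse 1874, and 0.031 and 0.089 without CSF1 OE mice 1932 and 1936, and ran from -0.26 to 0.089 with 1 mouse left out. The other 172 single-gene values kept their sign and side of the threshold, but single mice moved several by over 1.5 times: *Ccl2* ran from -0.80 to -0.30 (-0.30 without control mouse 1827 and -0.37 without CSF1 OE mouse 1936), *Ccl4* from -0.59 to -0.25 (-0.25 without control mouse 1872 and -0.29 without 1936), *Cxcl2* from -0.62 to -0.26 and *Ccl7* from -0.64 to -0.31 (both nearest 0 without 1936). The animal-number term moved *Ccl2* to -0.21 and *Ccl7* to -0.15, nearer 0 than any fit with 1 mouse left out. The cause of these changes was not tested. No paired analysis was possible because the groups share no animal number. *Ccl5* rests on 1 to 54 counts per library.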

Other observations

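*Cxcl13*, which encodes a B cell attractant and did not pass the filter on low counts, had 2, 1, 1 and 0 counts in control mice 1827, 1872, 1874 and 1934 and 5, 19, 9 and 2 counts in CSF1 OE mice 1931, 1932, 1936 and 2019. It is named here after its values were seen.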
